A study of Homo sapiens with 4 samples.

Results

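The genes described here encode the BTB-domain substrate receptors of CRL3, the ubiquitin ligase built on cullin 3. They were taken by symbol from the array's annotation, as every gene named KLHL, KBTBD, KCTD or BTBD followed by a number, together with SPOP and SPOPL, where a probe set carried that symbol alone. This gave 72 of the 19775 genes with such a probe set, and 159 probe sets, in 4 families plus the SPOP pair (34 KLHL, 8 KBTBD, 16 KCTD and 12 BTBD genes). Membership of the list says nothing of function by itself, since some KCTD and BTBD proteins are not known to work with cullin 3. KEAP1, the best known receptor of this class, was not included.

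In CRL3, cullin 3 holds the RING protein RBX1 and a ubiquitin-conjugating enzyme at one end and a BTB protein at the other. The BTB domain binds cullin 3, and a second domain, such as a Kelch propeller in the KLHL and KBTBD proteins or the MATH domain in SPOP, binds the substrate. The ligase is active when the ubiquitin-like protein NEDD8 is joined to cullin 3, a step that starts with the NEDD8-activating enzyme. In cells of the B lineage the family is known for KLHL6, a receptor of germinal centre B cells.

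The series held 4 arrays of 54675 probe sets from MM.1S, an established human multiple myeloma cell line. Cells were grown with the vehicle DMSO (control, with no culture time in the labels) or with 250 nM MLN4924, an inhibitor of the NEDD8-activating enzyme, for 8, 16 or 24 h. With 1 array in each group there were no replicates and no test, and each difference below is that of 1 array from another. In RNA from whole cultures, fewer cells with a transcript and less of it per cell cannot be told apart. As a stand-in for technical error, measured probe sets of the same gene differed from each other with a pooled SD of 0.16, 0.19 and 0.18 (log2) at 8, 16 and 24 h over 5719 genes, which leaves out the spread between cultures. Median intensities were 92.2 to 95.4, and the 3' to 5' signal ratio was 1.18 to 1.21 for GAPDH and 1.95 to 2.21 for ACTB over the 4 arrays. Each of the 10 plasma cell and myeloma markers was measured on these arrays, JCHAIN, SDC1 and TNFRSF17 among them. Of the markers of other cells, 3 of 5 mature B cell genes, 3 of 6 T and NK cell genes, 1 of 5 myeloid genes and 1 of 6 fibroblast genes passed the same limit, with MS4A1, PAX5, CD14 and LYZ below it. Summed over each list, marker intensity was 66073 to 74406 for the plasma cell genes, 685 to 702 for B cell, 476 to 503 for T and NK cell, 264 to 292 for myeloid and 592 to 597 for fibroblast genes, and the part of other cell types in the results was not tested.

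A gene is given by its brightest probe set and counted as measured when the mean log2 intensity of that probe set was above the median of all probe sets, a geometric mean of 93.9. By this limit 53 of the 72 receptor genes were measured and 19 were not. The measured genes were 24 KLHL, 6 KBTBD, 12 KCTD and 9 BTBD genes, SPOP and SPOPL. Intensities of the other 19 ran from 17.3 to 95.5, and 12 of them were under the floor of 48.4 on at least 1 array. These 19 were KLHL4, KLHL10, KLHL13, KLHL14, KLHL29, KLHL31, KLHL32, KLHL34, KLHL40, KLHL41, KBTBD11, KBTBD12, KCTD4, KCTD16, KCTD19, KCTD21, BTBD8, BTBD16 and BTBD17, and they include genes known from testis (KLHL10) and from skeletal muscle (KLHL31, KLHL40, KLHL41). KLHL14, which is known from B cells, had intensities of 38.7 (control), 40.6 (8 h), 54.7 (16 h) and 59.3 (24 h), near or under the floor on each array.

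KLHL24 held the largest difference of the family, and its brightest probe set did not show it. The protein is a Kelch receptor known for directing keratin 14 to degradation in skin. Probe set 221985_at had an intensity of 189 on the control array and 308, 571 and 578 at 8, 16 and 24 h, which is 1.63-fold, 3.02-fold and 3.05-fold above the control. For 226158_at the values were 186 (control), 275 (8 h), 399 (16 h) and 551 (24 h). For 221986_s_at they were 129 (control), 179.7 (8 h), 331 (16 h) and 380.0 (24 h). Each of these 3 probe sets was higher at 8 h than on the control array, higher again at 16 h and highest at 24 h, with log2 differences of 1.56 to 1.61 at 24 h. The brightest probe set, 206551_x_at, had 650.4 on the control array and 767, 605 and 733 at 8, 16 and 24 h, with log2 differences of 0.24, -0.10 and 0.17. The fifth, 242088_at, did not count as measured and had 35.2 (control), 46 (8 h), 127 (16 h) and 118 (24 h), under the floor on the control array and at 8 h. In the naming of these arrays the ending _x_at marks a probe set with probes that may bind other transcripts. Of the measured receptor genes KLHL24 alone had such a probe set as its brightest, and of those not measured KCTD16 had one. Whether 206551_x_at binds other transcripts was not tested. The rule of the brightest probe set therefore puts KLHL24 near the control, while 4 of its 5 probe sets were at least 2-fold higher at 24 h. Of 2455 genes with at least 3 measured probe sets, 1, KLHL24, had its brightest probe set within 1.25-fold of the control at 24 h and 2 or more others at least 2-fold away in one direction. This comparison was made after the KLHL24 values were seen.

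**Figure D1:**
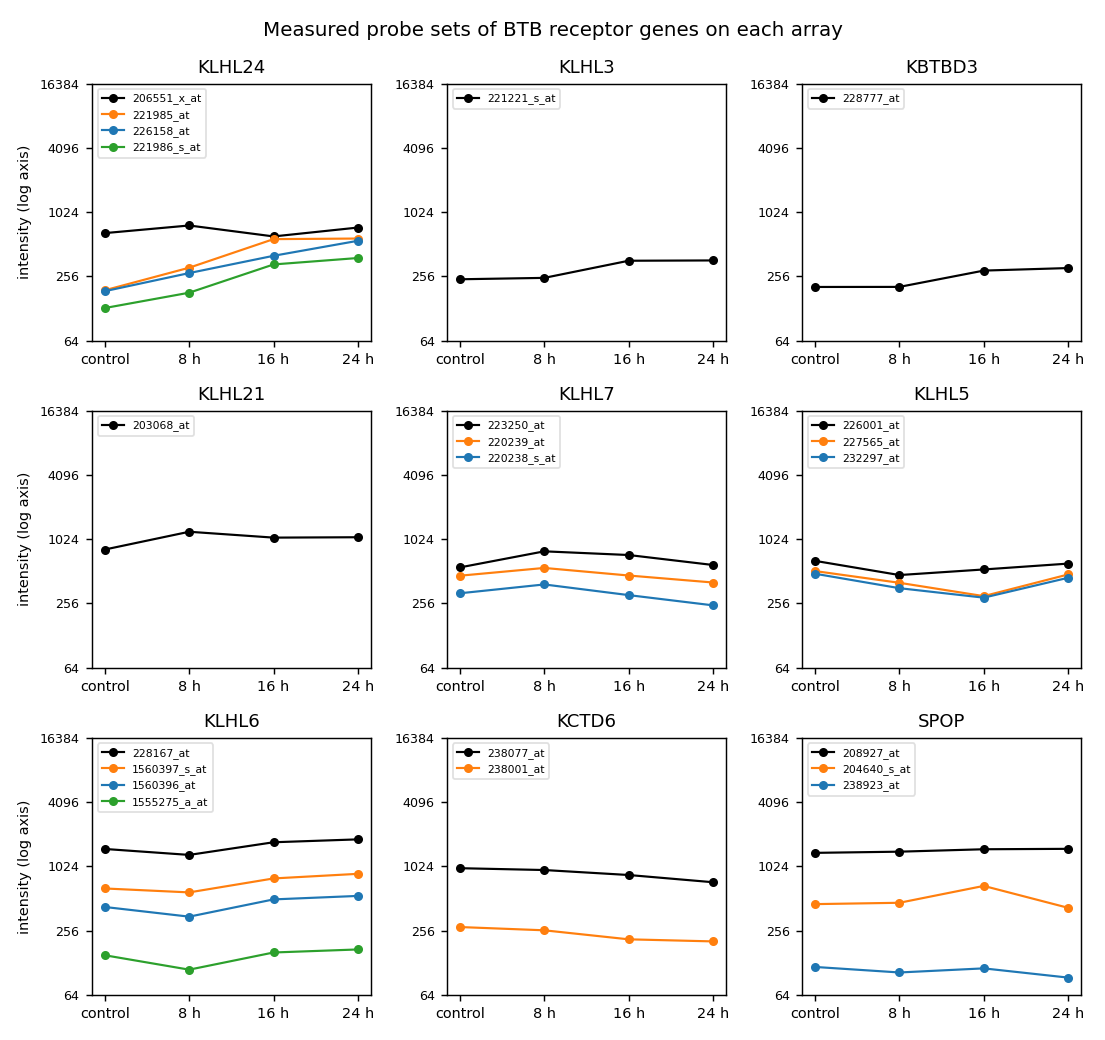
Intensity (log axis) of each measured probe set of 9 receptor genes on the 4 arrays, control and 8, 16 and 24 h of MLN4924; each point is 1 array and lines join points of 1 probe set. For KLHL24, 3 of the 4 measured probe sets climb to between 380.0 and 578 at 24 h, while 206551_x_at stays between 605 and 767.

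The windows around the start sites of 5 genes are printed because the results turn on them: KLHL24 for its 3 measured probe sets apart from the brightest, and, by brightest probe sets, KLHL3 and KBTBD3 as the highest at 24 h, KLHL21 as the highest at 8 h and KCTD6 as the lowest at 24 h. Each is the RefSeq window of 300 bases, 250 before and 50 after the start of the gene on build GRCh38.p14, read 5' to 3' on the gene's strand. KLHL24 is at chr3:183635373-183635672, plus strand, KLHL3 at chr5:137736040-137736339, minus strand, KBTBD3 at chr11:106077298-106077597, minus strand, KLHL21 at chr1:6602820-6603119, minus strand and KCTD6 at chr3:58491846-58492145, plus strand. Capitals mark matches on either strand to 5 motifs: TGACNNNGC, the antioxidant response element bound by NRF2; CACGTG, the E-box; GTAAACA, a forkhead motif; CCAAT; and GGGCGG, the GC box. No matches overlapped in these 5 windows.
KLHL24: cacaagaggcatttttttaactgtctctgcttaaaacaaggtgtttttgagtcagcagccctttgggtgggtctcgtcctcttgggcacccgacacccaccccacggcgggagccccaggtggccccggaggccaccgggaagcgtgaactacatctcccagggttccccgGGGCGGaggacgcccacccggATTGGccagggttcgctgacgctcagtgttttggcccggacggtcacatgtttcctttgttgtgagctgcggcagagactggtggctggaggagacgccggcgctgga
KLHL3: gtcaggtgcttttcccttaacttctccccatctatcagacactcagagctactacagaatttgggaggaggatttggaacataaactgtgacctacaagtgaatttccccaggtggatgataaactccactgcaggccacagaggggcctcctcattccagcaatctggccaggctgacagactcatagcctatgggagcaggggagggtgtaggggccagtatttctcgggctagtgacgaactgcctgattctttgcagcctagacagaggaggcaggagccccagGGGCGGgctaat
KBTBD3: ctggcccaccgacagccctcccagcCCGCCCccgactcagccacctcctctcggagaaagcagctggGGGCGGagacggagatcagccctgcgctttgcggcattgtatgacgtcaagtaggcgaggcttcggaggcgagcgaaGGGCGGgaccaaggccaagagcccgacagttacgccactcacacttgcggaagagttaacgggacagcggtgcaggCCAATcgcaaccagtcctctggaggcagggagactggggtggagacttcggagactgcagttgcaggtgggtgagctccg
KLHL21: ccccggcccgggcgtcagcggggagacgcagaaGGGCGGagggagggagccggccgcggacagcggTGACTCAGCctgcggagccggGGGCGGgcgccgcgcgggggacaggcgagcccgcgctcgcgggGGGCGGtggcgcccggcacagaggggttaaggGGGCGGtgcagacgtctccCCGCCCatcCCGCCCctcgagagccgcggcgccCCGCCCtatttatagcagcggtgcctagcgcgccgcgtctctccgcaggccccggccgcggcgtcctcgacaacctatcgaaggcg
KCTD6: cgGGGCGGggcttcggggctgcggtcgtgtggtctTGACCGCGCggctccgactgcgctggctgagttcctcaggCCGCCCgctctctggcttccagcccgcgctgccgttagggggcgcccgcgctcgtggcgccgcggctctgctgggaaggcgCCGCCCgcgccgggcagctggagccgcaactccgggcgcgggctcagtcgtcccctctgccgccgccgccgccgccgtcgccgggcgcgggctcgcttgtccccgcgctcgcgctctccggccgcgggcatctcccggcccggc
KLHL24 has 1 GC box and 1 CCAAT match, KBTBD3 has 3 and 1, and KLHL3 has 1 GC box. KLHL21 has 7 GC boxes and 1 match to the antioxidant response element, and KCTD6 has 3 and 1. Windows were given for 45 of the 53 measured receptor genes. The antioxidant response element matched in 12 of these 45 (26.7%), against 15.4% of 10038 measured genes and 13.6% of all 27305 windows of that length. For the E-box the share was 4.44%, against 10.1% and 7.43%, for the forkhead motif 0 of 45, against 2.39% and 3.41%, for CCAAT 17.8%, against 36.8% and 35.7%, and for the GC box 66.7%, against 68.3% and 44.6%. The 12 genes with the antioxidant match were BTBD1, BTBD3, BTBD6, BTBD18, KCTD2, KCTD6, KCTD20, KLHL12, KLHL15, KLHL18, KLHL21 and SPOP, whose log2 differences at 8 h ran from -0.40 (BTBD3) to 0.55 (KLHL21). A match is a run of letters, not a site shown to be bound.

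Over the brightest probe sets the family stayed close to the control. At 8 h, 0 of the 53 measured receptor genes stood 1.5-fold or more above the control and 0 that far below it, against 0.731% and 1.12% of all 12446 measured genes. At 16 h the counts were again 0 and 0, against 2.24% and 2.73%. At 24 h, 2 were at least 1.5-fold higher (KLHL3 and KBTBD3) and 0 lower, against 2.85% and 2.31%. No brightest probe set of a receptor gene was 2-fold from the control at any time, where the shares over all genes were 0.129% higher and 0.121% lower at 8 h, 0.386% and 0.289% at 16 h and 0.514% and 0.193% at 24 h. With shares this small, few or no calls among 53 genes is near the background.

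Median log2 differences of the 53 genes were 0.037, 0.056 and 0.073 at 8, 16 and 24 h, beside 0.0071, 0.026 and 0.016 over all measured genes. The median size of the difference, without sign, was 0.141, 0.130 and 0.170, beside 0.124, 0.165 and 0.165. Over the alternative settings the family's median ran from -0.0079 to 0.056 at 8 h, from 0.023 to 0.064 at 16 h and from -0.0014 to 0.073 at 24 h. Above 0 were 33, 32 and 30 of the 53 genes (62.3%, 60.4% and 56.6%), beside 51.7%, 54.3% and 52.6% of all measured genes. At a limit of 1.25-fold, chosen after the data were seen, 5 receptor genes were higher and 3 lower at 8 h, against 5.67% and 6.15% of all genes. The counts were 8 and 1 at 16 h, against 11.4% and 10.1%, and 8 and 4 at 24 h, against 11.4% and 9.94%.

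**Figure D2:**
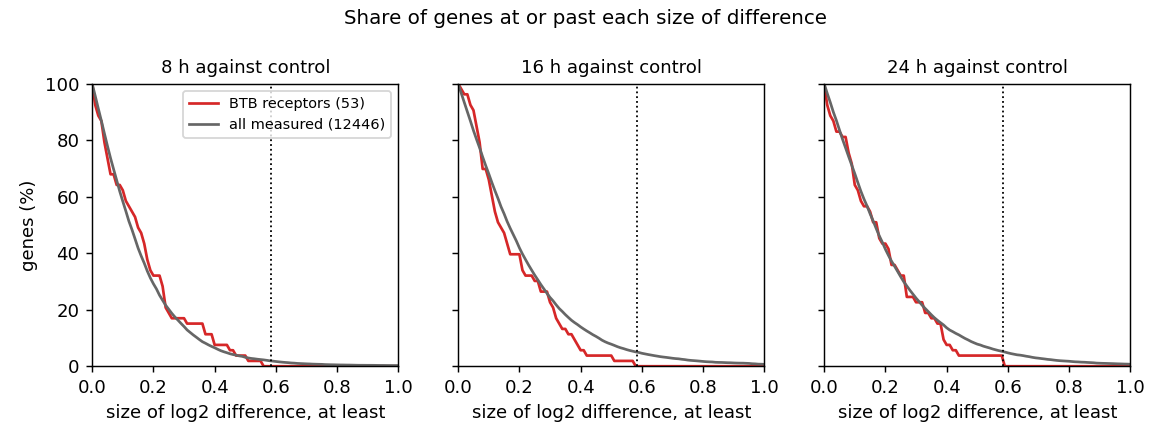
Share of genes (%) whose log2 difference from the control array is at least the size on the horizontal axis, for the 53 measured receptor genes (red) and all 12446 measured genes (grey), at 8, 16 and 24 h; the dotted line marks 1.5-fold. The lines cross several times at 8 and 24 h. At 16 h the red line runs under the grey one from 0.08 on, apart from 0.29. The dotted line is reached by 2 receptor genes, at 24 h.

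Counting a gene when any of its measured probe sets passed 1.5-fold, a rule also added after the data were seen, gave 1 receptor gene higher at 8 h and 1 at 16 h, KLHL24 both times. The shares over all genes were 1.15% and 2.89%. At 24 h there were 3 (KLHL24, KLHL3 and KBTBD3), against 3.7% of all genes. Lower were 0 at 8 h, 1 at 16 h (KLHL5) and 0 at 24 h, against 1.52%, 4.11% and 3.13%. At 2-fold by the same rule 0, 1 and 1 receptor genes were higher, the 1 being KLHL24, against 0.145%, 0.498% and 0.619%, and 0 were lower, against 0.177%, 0.466% and 0.273%.

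Among the KLHL genes, KLHL3 and KLHL21 were the highest at 24 h by their brightest probe sets. KLHL3, which brings the WNK kinases of salt handling to CRL3, had an intensity of 240.1 on the control array and 247, 358 and 361 at 8, 16 and 24 h. The control and 8 h arrays lay together and the 16 and 24 h arrays lay together above them, at log2 differences of 0.043, 0.58 and 0.59, or 1.5-fold at 24 h. Its other probe set was not measured, at 14.3 to 24.7 on the 4 arrays. KLHL2, a close relative that also binds WNK kinases, stood at 0.17, -0.079 and -0.0014, and the kinase gene WNK1 at 0.12, 0.18 and 0.088. KLHL21, a receptor that acts on Aurora B in mitosis, had 820.2 on the control array and 1204, 1061 and 1069 at 8, 16 and 24 h. It was 1.47-fold above the control at 8 h, the highest brightest probe set of the family at that time, with 2 other probe sets of KLHL24 above it, and 1.3-fold at 24 h. KLHL3 (221221_s_at), KLHL21 and KBTBD3 each had 1 measured probe set, so none of them had a second measured reading. At 24 h KLHL3 and KBTBD3 lay at the edge of 1.5-fold, and neither reached it with arrays centred on their medians, after quantile normalization or with a pseudocount of 16 in place of the floor.

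Other Kelch receptors were higher at 8 h and closer to the control later. KLHL7, a receptor gene mutated in a form of retinitis pigmentosa, had 558 on the control array and 789, 729 and 587 at 8, 16 and 24 h, or 1.42-fold at 8 h. Its other probe sets stood at 0.24, 0.0059 and -0.21 (220239_at) and 0.27, -0.057 and -0.38 (220238_s_at), so all 3 were above the control at 8 h and on different sides of it at 24 h. KLHL1, known from neurons, had 143 on the control array and 196, 165 and 171 at 8, 16 and 24 h, with 1 measured probe set of low intensity. KLHL15, which targets a regulatory subunit of the phosphatase PP2A, stood at 0.37, 0.072 and 0.19, and KLHL42, a receptor for the microtubule-severing protein katanin, at 0.25, 0.031 and 0.005, where 1 of 2 other probe sets had the opposite sign at 8 h and at 16 h, and both had it at 24 h.

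KLHL5 was lower at 8 h in each of its 3 measured probe sets, and lower again at 16 h in 2 of them. The brightest, 226001_at, had 642 on the control array and 473, 533 and 605 at 8, 16 and 24 h. For 227565_at the values were 515 (control), 399.9 (8 h), 300.0 (16 h) and 479 (24 h). For 232297_at they were 486 (control), 356 (8 h), 290.3 (16 h) and 446 (24 h). Log2 differences were -0.44, -0.27 and -0.086 for 226001_at, with -0.37, -0.78 and -0.11 for 227565_at, and -0.45, -0.74 and -0.13 for 232297_at, so the probe sets lay close together at 8 and 24 h and apart at 16 h. From 16 to 24 h the difference was 0.67 for 227565_at, 0.62 for 232297_at and 0.18 for 226001_at (log2).

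KLHL6 was on both sides of the control. This receptor of germinal centre B cells, which targets Roquin2, had 1492 on the control array and 1313, 1725 and 1836 at 8, 16 and 24 h, lowest at 8 h and highest at 24 h. All 4 measured probe sets were below the control at 8 h, from -0.45 to -0.12 (log2), and all 4 above it at 24 h, from 0.18 to 0.46. KLHL36 had a similar order, with 539.9 on the control array and 502, 669 and 677 at 8, 16 and 24 h, and log2 differences of -0.11, 0.31 and 0.33, but its other measured probe set stood at -0.052, 0.04 and -0.089.

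The lowest Kelch receptors at 24 h were KLHL22 and KLHL12. KLHL22, a receptor for the mitotic kinase PLK1 and for DEPDC5, had 179.6 on the control array and 164, 146 and 134 at 8, 16 and 24 h, lower at each later time, and was 1.34-fold below the control at 24 h. Its other measured probe set stood at 0.0028, 0.09 and -0.21, of the same sign at 24 h alone. By the median over its 5 probe sets, 3 of them not measured, KLHL22 stood at 0.10, 0.30 and 0.36. These are the values of 221948_s_at, a probe set that was not measured. It had 47.5 on the control array, under the floor, and 52.0, 59.7 and 62.3 at 8, 16 and 24 h. KLHL12, which marks the COPII coat protein SEC31 and the Wnt mediator Dishevelled, had 996 on the control array and 896, 911 and 773 at 8, 16 and 24 h, and was 1.29-fold below the control at 24 h. Its second probe set was at -0.084, 0.022 and -0.29. Of the genes whose products KLHL22 acts on, PLK1 stood at 0.011, -0.10 and 0.037 and DEPDC5 at 0.045, 0.18 and -0.016. Of those for KLHL12, SEC31A stood at 0.098, -0.0029 and 0.053 and DVL1, which encodes a Dishevelled protein, at 0.45, 0.47 and 0.088.

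By their brightest probe sets, further Kelch receptors with known substrates were within 0.3 (log2) of the control at each time. KLHL20, which targets PML and DAPK1, stood at -0.22, -0.21 and -0.095, with 1 of 2 other probe sets of opposite sign at 8 h. Its measured probe set 204176_at was at -0.32 at 24 h. KLHL9 stood at -0.14, 0.15 and 0.25, and its other measured probe set at -0.21, -0.048 and 0.017. Its near relative KLHL13 was at 17.3 to 28.4 (intensity), under the floor on each array. KLHL18, which acts on Aurora A, stood at 0.23, 0.26 and 0.11, but its other measured probe set at 0.020, 0.037 and -0.054. KLHL25, a receptor for 4E-BP1 and ATP-citrate lyase, stood at 0.16, 0.13 and -0.056. The brightest probe sets of KLHL8, KLHL11, KLHL17, KLHL23, KLHL26, KLHL28 and KLHL35 lay between -0.24 and 0.18 over the 3 times. Another measured probe set of KLHL8, 1561206_at, was at -0.41 at 16 h. The 24 measured KLHL genes had medians of 0.073, 0.040 and 0.040, with 13, 14 and 13 above 0.

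**Figure D3:**
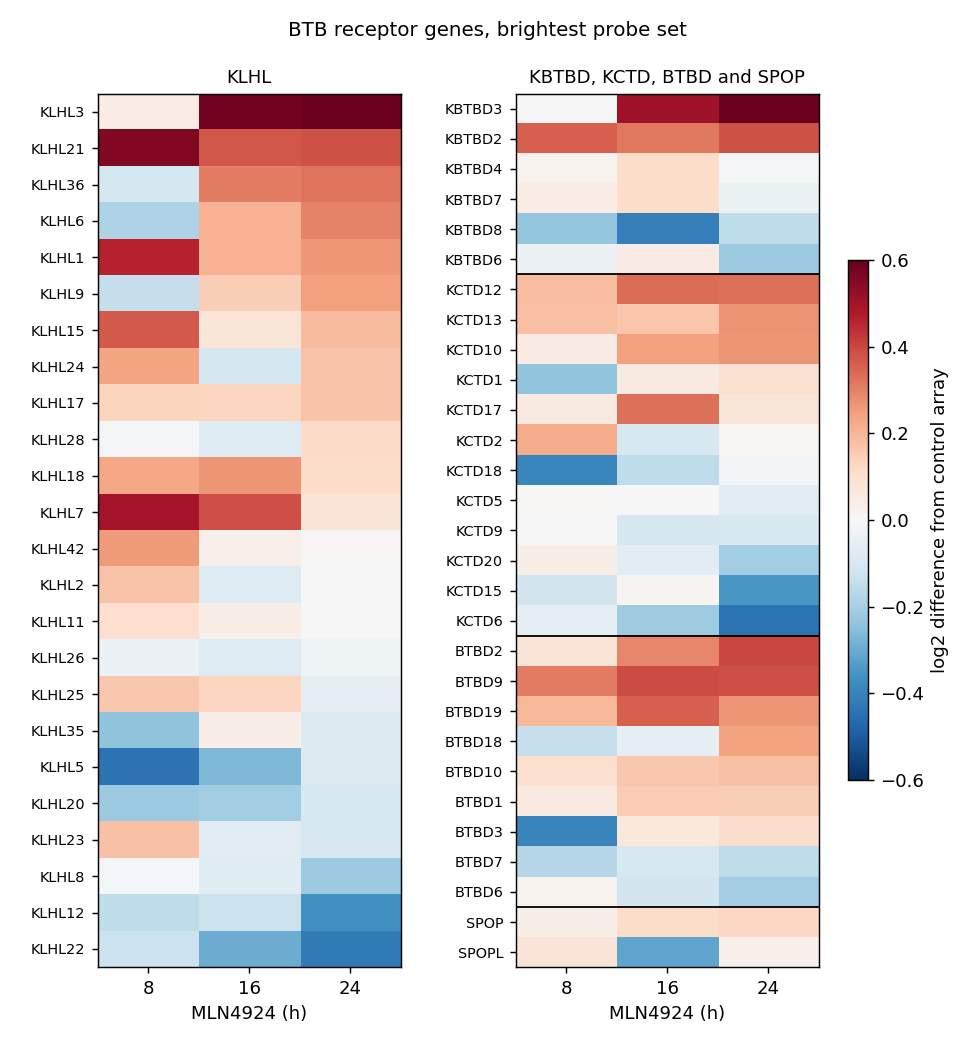
Log2 difference from the control array at 8, 16 and 24 h of MLN4924 (columns) for the 53 measured receptor genes (rows), KLHL on the left and KBTBD, KCTD, BTBD and SPOP genes on the right, each family ordered by its 24 h value and each gene shown by its brightest probe set. KLHL3 and KBTBD3 are the darkest red at 24 h (0.59 each), KCTD6 the darkest blue (-0.44), and KLHL24 appears by 206551_x_at alone.

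Of the 6 measured KBTBD genes, KBTBD3 and KBTBD2 stood above the control. KBTBD3 had 203 on the control array and 204, 289.6 and 306 at 8, 16 and 24 h, with control and 8 h alike and the later arrays above them (0.0023, 0.51 and 0.59, log2). KBTBD2, which targets the PI3-kinase subunit p85alpha, had 745 on the control array and 957, 927 and 970.3 at 8, 16 and 24 h, above the control at each time. Its other probe sets were above the control too, at 0.23, 0.088 and 0.15 (223584_s_at) and 0.33, 0.24 and 0.19 (223585_x_at). For PIK3R1, the gene of that substrate, the brightest probe set had 350.1 on the control array and 275, 258 and 272 at 8, 16 and 24 h. It was below the control at each time. PIK3R1 had 1 other measured probe set, which is not reported here, and a link between the 2 genes was not tested. KBTBD8 is a receptor for the nucleolar proteins TCOF1 and NOLC1. It had 670.1 on the control array and 570.0, 504 and 602 at 8, 16 and 24 h, lowest at 16 h. KBTBD8 was read by 1 probe set. TCOF1 stood at 0.14, -0.11 and -0.068 and NOLC1 at -0.099, -0.27 and -0.24. KBTBD6 and KBTBD7, which act together on TIAM1, stood at -0.037, 0.051 and -0.22 (KBTBD6) and 0.047, 0.11 and -0.038 (KBTBD7), with TIAM1 at -0.088, -0.052 and -0.028. KBTBD4, which binds the CoREST complex, stood at 0.022, 0.11 and -0.011.

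The 12 measured KCTD genes had medians of 0.020, 0.0063 and -0.0044, with 8, 6 and 6 above 0. KCTD6, a receptor linked to Hedgehog signalling, was the lowest of the family at 24 h, with 985 on the control array and 947, 851 and 728 at 8, 16 and 24 h, or 1.35-fold below the control at 24 h. Both of its probe sets ran down with each time, the second at -0.10, -0.38 and -0.45. KCTD15, known as a repressor of AP-2 factors, stood at -0.11, 0.015 and -0.35, and its relative KCTD1 at -0.24, 0.056 and 0.093, where each of 3 further measured probe sets was above the control at 8 h. KCTD20 had 2069.6 on the control array and 2118, 1975 and 1793 at 8, 16 and 24 h, and its 3 probe sets were -0.42 to -0.17 at 24 h.

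KCTD12, an auxiliary subunit of GABA-B receptors rather than a known cullin 3 receptor, had 1004 on the control array and 1140.4, 1265 and 1261 at 8, 16 and 24 h, with its 2 probe sets at 0.33 and 0.32 at 24 h. KCTD10 and KCTD13, which are close relatives, stood at 0.048, 0.24 and 0.26 (KCTD10) and 0.18, 0.17 and 0.27 (KCTD13). Their other measured probe sets stood at 0.25, 0.18 and 0.26 (KCTD10) and -0.042, 0.10 and 0.11 (KCTD13). KCTD17, which targets the centriolar protein trichoplein, had 246 on the control array and 256, 309.8 and 259 at 8, 16 and 24 h, highest at 16 h in both of its probe sets. By brightest probe sets its relatives KCTD2 and KCTD5 stood at -0.096 and -0.0027 at that time. The other measured probe sets of KCTD5 stood at 0.099 (222645_s_at) and 0.34 (229837_s_at) at 16 h, and that of KCTD2 at -0.0070. KCTD18 had 314 on the control array and 239.5, 282 and 310.5 at 8, 16 and 24 h, lowest at 8 h, but its second probe set had the opposite sign then (0.043). KCTD9 stood at 0.0031, -0.11 and -0.092.

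Of the 9 measured BTBD genes 6, 6 and 7 were above the control, with medians of 0.056, 0.15 and 0.18. BTBD1 and BTBD2 bind DNA topoisomerase I. BTBD1 had 2920.1 on the control array and 3036, 3249 and 3233 at 8, 16 and 24 h. BTBD2 had 470.0 on the control array and 495, 575 and 619.7 at 8, 16 and 24 h. Both stood above the control at each time, BTBD2 by 1.32-fold at 24 h. BTBD9, a gene linked to restless legs syndrome, had 92.7 on the control array and 115, 122 and 121 at 8, 16 and 24 h, close to the limit for measured genes. BTBD3, which orients dendrites in mouse neurons, had 671 on the control array and 509, 702 and 722 at 8, 16 and 24 h, low at 8 h alone. BTBD1, BTBD2 and BTBD3 each had 1 probe set, and BTBD9 had 1 measured of 4, so none had a second measured reading. BTBD19 stood at 0.20, 0.36 and 0.26, BTBD10 at 0.095, 0.16 and 0.18, BTBD18 at -0.14, -0.053 and 0.24 and BTBD6 at 0.02, -0.11 and -0.21. BTBD7 stood at -0.17, -0.098 and -0.15, with 1 of 3 other probe sets of opposite sign at 8 h.

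SPOP, the receptor of BET proteins and steroid receptor coactivators that is mutated in prostate cancer, was near the control by its brightest probe set, with 1372 on the control array and 1408, 1483 and 1496 at 8, 16 and 24 h. At 24 h its remaining measured probe sets were both below the control. One of them, 204640_s_at, had 454 on the control array and 467, 672 and 419 at 8, 16 and 24 h, high at 16 h alone and 1.48-fold above the control there. SPOPL, its close relative, had 1033 on the control array and 1089, 829.6 and 1055 at 8, 16 and 24 h, low at 16 h alone, and its other probe set stood at 0.22, 0.012 and -0.16. Both SPOPL probe sets were above the control at 8 h and they lay on opposite sides of it at 16 and 24 h.

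**Figure D4:**
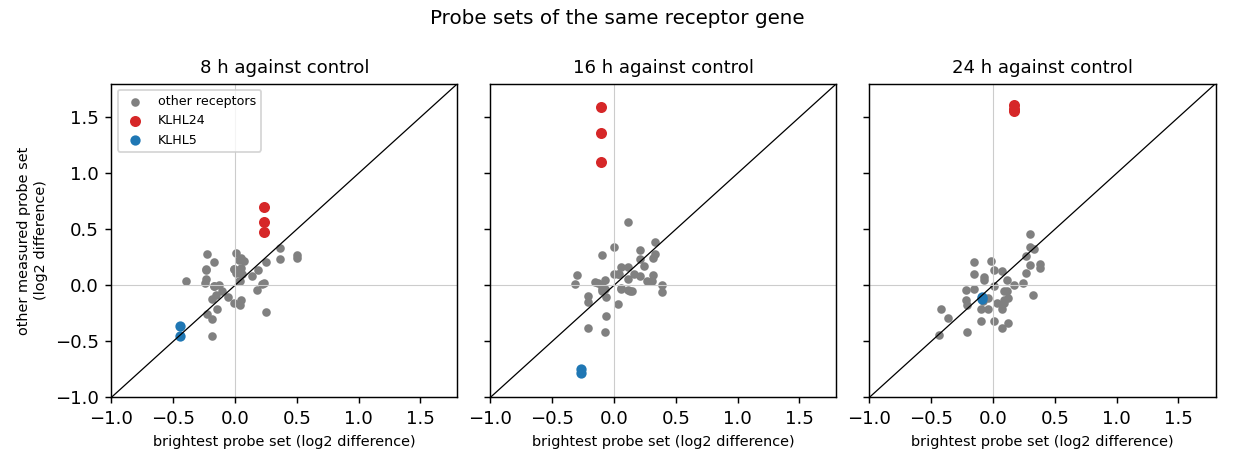
Log2 difference from the control of each further measured probe set (vertical) against that of the brightest probe set of the same receptor gene (horizontal) at 8, 16 and 24 h, with the line of equality; each point is 1 probe set. KLHL24 (red) lies above the line at each time and farthest at 16 and 24 h, KLHL5 (blue) leaves it downward at 16 h, and the rest lie within about 0.6 of 0.

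A second measured probe set was there for 30 of the 53 genes and none for 23. All further probe sets had the sign of the brightest for 18 of these 30 genes at 8 h, 16 at 16 h and 20 at 24 h, and the same was true of 34, 30 and 31 of the 48 further probe sets. Probe sets of the same receptor gene differed with a pooled SD of 0.16, 0.24 and 0.22 at the 3 times, and 0.15, 0.16 and 0.13 without KLHL24. The family's median size of difference was 0.141, 0.130 and 0.170, beside 0.124, 0.165 and 0.165 over all measured genes. The pooled SD between probe sets over all genes was 0.16, 0.19 and 0.18. A median size and an SD are unlike measures, so the differences are not placed inside or outside this spread.

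Between treated arrays 0 receptor genes were 1.5-fold apart by their brightest probe sets. From 8 to 16 h the shares of all genes that far apart were 1.86% higher and 1.61% lower, and from 16 to 24 h 0.739% and 0.0884%. By any measured probe set, 1 was higher at 16 h than at 8 h (KLHL24) and 0 lower, against 2.58% and 2.53%, and 1 was higher at 24 h than at 16 h (KLHL5) and 1 lower (SPOP), against 1.21% and 0.193%. By brightest probe sets, the highest log2 differences of 16 h from 8 h were those of KLHL3 (0.53), KBTBD3 (0.51) and BTBD3 (0.46), and the lowest those of SPOPL (-0.39), KLHL24 (-0.34, by 206551_x_at) and KCTD2 (-0.32). The other measured probe sets of KLHL24 stood at 0.89, 0.54 and 0.88, above all of these. Of 24 h from 16 h, SPOPL (0.35) was the highest and KCTD15 (-0.36) the lowest. No brightest probe set of a receptor gene was low on the 16 h array alone, by at least 0.5 (log2) against both 8 and 24 h, where 0.498% of all measured genes were, and none was high there alone (0.0402%). SPOP's 204640_s_at was the 1 measured probe set of the family past that limit, at 0.53 and -0.68.

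The rest of the ligase and the NEDD8 cycle was read from 25 genes, of which 22 were measured, CAND2 and SENP8 were below the limit and 1 was not analysed here. None was 1.5-fold from the control at any time, where the shares of all measured genes at 8, 16 and 24 h were 0.731%, 2.24% and 2.85% higher and 1.12%, 2.73% and 2.31% lower. Counts in this list and the next ones are near those shares. The medians were 0.056, -0.0067 and -0.038. CUL3, the scaffold, had 2327 on the control array and 2449.9, 2471 and 2619 at 8, 16 and 24 h, and RBX1, the RING subunit shared by several cullins, had 3519.9 on the control array and 3076, 2639 and 2629.9 at 8, 16 and 24 h, below the control at each time and -0.42 (log2) at 24 h. Of 18 BTB proteins outside the naming rule 15 were measured, with medians of -0.065, -0.046 and -0.035. In that list 1 gene was at least 1.5-fold higher at 16 and at 24 h, ABTB1, a BTB protein with ankyrin repeats, at 220.2 on the control array and 253, 455 and 402 at 8, 16 and 24 h, by its 1 measured probe set. At 16 h ABTB1 was 2.07-fold above the control, the 1 gene of that list past 2-fold, against 0.386% of all measured genes. Of 37 genes that encode known substrates and partners of the receptors 32 were measured, with medians of 0.057, 0.021 and 0.017. Of these, 1 was past 1.5-fold at 16 h and none at 8 or 24 h. That gene was DAPK1, a death-associated kinase and substrate of KLHL20, at 743 on the control array and 789.5, 1221 and 1079.8 at 8, 16 and 24 h, where its other measured probe set stood at 0.25, 0.19 and 0.30 (log2).

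The F-box receptors of CRL1, the ligase of cullin 1, served for comparison, with 46 measured of 56 genes named FBXO, FBXL or FBXW and a number. By brightest probe sets 0, 0 and 2 of the 53 BTB receptor genes were at least 1.5-fold higher at 8, 16 and 24 h and 0, 0 and 0 lower, beside 0, 3 and 2 higher and 1, 2 and 2 lower of the F-box genes. Over all measured genes the shares higher were 0.731%, 2.24% and 2.85% and the shares lower 1.12%, 2.73% and 2.31%, and with so few genes called in either family nothing is read from the contrast. With 1 array a group the difference between the families was not tested.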

How the data were processed

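Total RNA of 4 MM.1S cultures was extracted with Trizol and hybridised as biotin-labelled cRNA to Affymetrix arrays, per the labels. The deposited values are intensities on a linear scale. How the authors summarised, corrected and normalized them is not given in the sources used here, and their nearly equal quartiles were taken to make the arrays comparable. No depth applies to arrays, and with 1 array per group there was no test.

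Groups came from the sample titles. Of 54675 probe sets, 41097 had 1 symbol in the platform's annotation, 1801 several and 11777 were not listed. Entrez identifiers matched to RefSeq (GRCh38.p14) changed 0 symbols of the family. Values under the 25th percentile (48.4) were set to it and log2 was taken, and a gene was its brightest probe set by mean over the 4 arrays, as measured above the 50th percentile of means (12446 genes). No scaling was added. Named genes were those 1.5-fold from control, the 3 highest and 3 lowest at each time, the 5 brightest, SPOP, SPOPL, KLHL6 and KLHL14, and KLHL24 was added after its values were seen. Members and lists were chosen with earlier results of these data known. Alternatives were the probe set, the filter, the floor and the scaling. The steps were tested on simulated data, in Python 3.11.15 with pandas 2.3.3 and numpy 2.4.6.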

Additional observations from a re-analysis of the deposited data

Results flagged for a closer look

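KLHL6 was the 1 receptor gene with differences on opposite sides of the control at different times that each passed the pooled SD between probe sets of the same gene. It stood at 0.21 (log2) at 16 h and 0.30 at 24 h, against -0.19 at 8 h. The difference between these times was not tested, since each is 1 array.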

How the results depend on the processing

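Results were recomputed with medians over all probe sets of each gene, without probe sets ending in _x_at and _s_at (44 measured receptor genes), with no filter (72), with a filter at the 75th percentile (37), with a pseudocount of 16 in place of the floor, with arrays centred on their medians and with quantile normalization. Added after the data were seen were a limit of 1.25-fold, any measured probe set, the median over measured probe sets and each KLHL24 probe set. The genes at least 1.5-fold higher at 24 h numbered 2, both at the edge of the limit. They numbered 0 with the pseudocount, with centred arrays and with quantile normalization, 1 with the 75th percentile filter and 8 at 1.25-fold. By gene medians and without _x_at and _s_at, KLHL24 was past 1.5-fold at 24 h and KLHL3 was not. KLHL3 stood at 0.29 by gene medians. Its 1 measured probe set, 221221_s_at, is left out without _x_at and _s_at. At 16 h the number was 1 by gene medians, without _x_at and _s_at and with any measured probe set, and 8 at 1.25-fold. At 8 h it was 1 without _x_at and _s_at and with any measured probe set, and 5 at 1.25-fold. Lower by 1.5-fold at 16 h was 1 by gene medians and with any measured probe set, and lower at 1.25-fold were 3, 1 and 4 at 8, 16 and 24 h. By 2-fold, 1 was higher at 16 h and 1 at 24 h by gene medians and without _x_at and _s_at. Between times, 1 gene was 1.5-fold higher at 16 than 8 h without _x_at and _s_at and with any measured probe set, and 1 higher and 1 lower at 24 than 16 h by gene medians and with any measured probe set. KLHL24 ran from -0.14 to 1.59 at 16 h and from 0.12 to 1.61 at 24 h over these alternatives, and KLHL3 from 0.29 to 0.59 at 24 h.

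A count was taken as unmoved within 1.5 times, and a median within the pooled SD between probe sets divided by the square root of the number of genes. The family's median moved by more than that in these cases. At 8 h it was -0.0079 with centred arrays and 0.013 with no filter. At 16 h it was 0.023 with centred arrays. At 24 h it was 0.024 with centred arrays, 0.034 over measured probe sets, -0.0014 over all probe sets, 0.0073 with no filter and 0.013 without _x_at and _s_at. It was -0.022 for 16 against 8 h by gene medians and -0.012 for 24 against 16 h with quantile normalization. For the ligase and NEDD8 genes the 8 h median was 0.011 with centred arrays, 0.022 by gene medians, 0.019 with no filter and -0.049 without _x_at and _s_at, the 16 h median -0.079 by gene medians, and the 24 h median -0.087 with centred arrays. For other BTB proteins it was -0.11 at 8 h and -0.083 at 24 h with centred arrays and 0.038 at 24 h by gene medians. For substrates it was 0.012 at 8 h and -0.031 at 24 h with centred arrays, -0.018 at 16 h and -0.015 at 24 h by gene medians, and 0.055 at 16 h without _x_at and _s_at. The cause was not tested. The other 208 recomputed counts and medians were unmoved by these limits, among them 3 genes 1.5-fold higher at 24 h by any measured probe set, against 2. By gene medians KLHL22 stood at 0.10, 0.30 and 0.36 at 8, 16 and 24 h, the values of its probe set 221948_s_at, near the floor and not measured. SPOP turned to -0.11 at 24 h by gene medians. No paired analysis was possible because each group was 1 array. Small differences cannot be told from error here, since with 1 array per group the spread between cultures was not measured. The spread between probe sets of a gene (0.16 to 0.19) is a stand-in and not a limit of detection, for smaller or for larger values.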

Other observations

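Some probe sets carry the symbol of a receptor gene together with that of another gene and were left out of the family. For KLHL23, 213610_s_at, shared with the readthrough gene PHOSPHO2-KLHL23, had an intensity of 144 on the control array and 129, 114 and 90 at 8, 16 and 24 h, a log2 difference of -0.68 at 24 h, where the single-symbol probe set of KLHL23 stood at -0.095. The 4 probe sets shared by KCTD7, a gene of inherited myoclonic epilepsy, and RABGEF1 were 0.24 to 0.40 (log2) above the control at 24 h. Of these, 1553717_at (0.40) and 1555569_a_at (0.39) were below the limit for measured genes. The measured probe sets were 213474_at (0.24) and 218310_at (0.29). For 218310_at the intensity was 374 on the control array and 407, 399 and 457 at 8, 16 and 24 h. Which of the genes gives the signal of such a probe set cannot be told from these arrays.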
